A study of Mus musculus with 6 samples.

Results

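Integrins are the adhesion receptors through which macrophages hold on to matrix, to other cells and to opsonised particles, and 10 integrin genes of thioglycollate-elicited mouse peritoneal macrophages were followed here through every library. They were taken from the deposited count table by symbol (Itgam, Itgax, Itgal, Itga4, Itga5, Itga6, Itgb1, Itgb2, Itgb3 and Itgb7). The symbols matched 11 of the 25509 gene rows, because Itgam stood on 2 rows, and all 11 rows passed the filter on low counts. The RNA came from 3 Tg-ACE and 3 WT libraries of C57BL/6 background. Tg-ACE, which the labels also call JWT, overexpresses angiotensin-converting enzyme (ACE), the peptidase that makes angiotensin II, and WT is wild type. In both genotypes the cells had been drawn into the peritoneal cavity with thioglycollate, collected on day 4, separated on Percoll and kept after adhering for 2 h. Each genotype holds 1 library with the experiment code Exp-156b and replicate number 2, 1 with that code and number 3, and 1 with the code Exp-156 and number 1. The promoter of the transgene, the age of the mice, the meaning of the codes and whether a library came from 1 mouse or from pooled mice are not given in the sources used here. All p-values therefore rest on the variation among these 6 libraries, part of which may be technical.

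The libraries held 24294244 to 28120393 counts and 15559 to 15877 counted genes each. All 9 macrophage core markers were found, with a summed level of 19321 to 22365 CPM (counts scaled to a common library total) in Tg-ACE and 19694 to 23371 CPM in WT. Ace, the overexpressed gene, stood at 25.6 to 100.6 CPM in Tg-ACE libraries and at 7.60 to 16.7 CPM in WT libraries. The first principal component of all genes held 74.6% of the variance and separated the experiment codes. Xist, the RNA of the silenced X chromosome, stood at 327.3 to 454.5 CPM in Exp-156b and at 0.527 CPM in the Tg-ACE and 0.409 CPM in the WT library of Exp-156, and the Y-linked Ddx3y at no more than 0.107 CPM in Exp-156b against 51.6 CPM in Tg-ACE and 48.0 CPM in WT within Exp-156. The code and the sex of the mice therefore cannot be told apart in any comparison of the codes.

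An integrin is a pair of 1 α and 1 β subunit, and the pair decides the ligand. In leukocytes the β2 subunit (Itgb2, CD18) joins αM (Itgam, CD11b) into Mac-1, the receptor for complement-coated particles and fibrinogen, αX (Itgax, CD11c) into another complement receptor, and αL (Itgal, CD11a) into LFA-1, which binds ICAM proteins on other cells. The β1 subunit (Itgb1) joins α4 (Itga4) into the VCAM-1 receptor VLA-4, α5 (Itga5) into the fibronectin receptor and α6 (Itga6) into a laminin receptor. The β7 subunit (Itgb7) also pairs with α4, in a receptor for the gut addressin MAdCAM-1, and the β3 subunit (Itgb3) pairs with αv in the vitronectin receptor. CD11b is a standard surface marker of peritoneal macrophages, and CD11c is used to mark dendritic cells and some macrophages.

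Set beside each other per length (CPM divided by kilobases of merged exons), Itgb2 was the most abundant integrin transcript of the 10 in every library, and the α subunits followed at much lower levels. Itgb2 averaged 844.1 ± 29.95 CPM per kb in Exp-156b (SD, n = 4) and 740.2 ± 7.49 CPM per kb in Exp-156 (SD, n = 2). Itgam stood behind Itgb1 and Itgax in Exp-156b, at 97.6 ± 19.97 CPM per kb (SD, n = 4), but next to Itgb2 in Exp-156, at 333.9 ± 10.4 CPM per kb (SD, n = 2). In Exp-156b Itgb1 (138.9 to 155.1 CPM per kb), Itgax (91.5 to 160.7), Itgam (77.8 to 124.8) and Itgb7 (43.9 to 97.3) formed a chain in which the ranges of neighbours overlapped. In Exp-156 the order ran Itgb2, Itgam, Itgb1 (180.6 and 181.4), Itgb7 (140.1 and 145.5), Itgax (48.9 and 50.5), Itga5 (34.5 and 36.6) and Itga6 (16.2 and 21.5), with no overlap between neighbours. The lowest 4 members in both experiments were Itga6 (8.06 to 11.1 CPM per kb in Exp-156b), Itgal (10.8 to 21.2 in Exp-156b, 5.60 and 8.82 in Exp-156), Itgb3 (4.25 to 10.9 in Exp-156b, 6.16 and 8.37 in Exp-156) and Itga4 (3.07 to 4.35 in Exp-156b, 7.95 and 8.81 in Exp-156). In Exp-156b Itgal stood first among them and its range overlapped that of Itga6, and in Exp-156 it stood last and overlapped Itgb3. The order of the means over 6 libraries was the same when the longest transcript was used as the length, although the Itga6 mean was then 26.1 in place of 12.5 CPM per kb and the Itga4 mean 7.46 in place of 5.21.

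**Figure D1:**
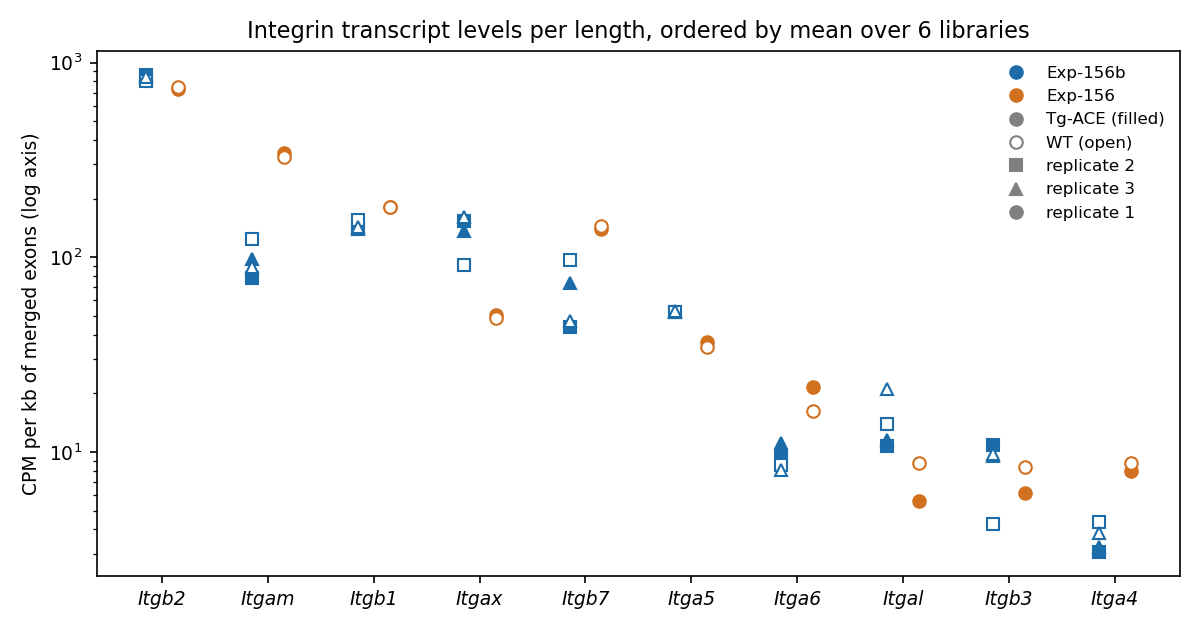
Level of each integrin gene in CPM per kilobase of merged exons (log axis), genes ordered by the mean over 6 libraries, with Exp-156b in blue left of Exp-156 in orange, Tg-ACE filled, WT open, and the shape giving the replicate number. Itgb2 lay at 734.9 or above in all 6 libraries, and Itgax lay above Itgam in 3 of the 4 Exp-156b libraries (not in WT replicate 2) but below it in both Exp-156 libraries.

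Between the experiments the β2 family changed its α subunits. Itgam fell and Itgax and Itgal rose in Exp-156b relative to Exp-156 in both genotypes, while Itgb2 differed by far less. The comparison was made with genotype as a further term, over 4 Exp-156b and 2 Exp-156 libraries. It asks how far libraries with the same stated preparation differ between the codes.

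Itgam, on chromosome 7 at 128062640 to 128118491 (forward strand, GRCm38), had 390.9 and 493.5 CPM in the Tg-ACE libraries and 626.9 and 449.7 CPM in the WT libraries of Exp-156b, against 1715 CPM in the Tg-ACE and 1641 CPM in the WT library of Exp-156. All 4 Exp-156b libraries were low, and their mean was 0.292 times that of Exp-156. The log2 fold change was -1.78 (SE 0.15, adjusted p = 0.000134). Unless another tool is named, adjusted p-values come from the edgeR quasi-likelihood test and are adjusted over 12827 genes by the Benjamini-Hochberg method. In bulk RNA, for this and every later value, fewer cells of a type and less RNA per cell cannot be told apart.

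Itgax begins 11055 bases beyond the end of Itgam on the same strand (chromosome 7, 128129547 to 128150657) and went the other way. It had 738.4 and 653.0 CPM in Tg-ACE and 439.3 and 772.0 CPM in WT within Exp-156b, against 242.8 CPM in Tg-ACE and 234.6 CPM in WT within Exp-156. The lowest Exp-156b library was still above both Exp-156 libraries. The log2 fold change was 1.44 (SE 0.21, adjusted p = 0.00145), a mean 2.73 times that of Exp-156. Within Exp-156b, WT replicate 2 had the highest Itgam and the lowest Itgax level.

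Itgal lies nearby on chromosome 7 (127296260 to 127335138, forward strand). It had 70.8 and 75.6 CPM in Tg-ACE and 91.4 and 139.0 CPM in WT within Exp-156b, against 36.8 CPM in Tg-ACE and 57.9 CPM in WT within Exp-156. The codes did not overlap, and the log2 fold change was 0.99 (SE 0.16, adjusted p = 0.00209).

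Itgb2, the shared partner (chromosome 10, 77530252 to 77565708, forward strand), had 2645 and 2647 CPM in Tg-ACE and 2454 and 2559 CPM in WT within Exp-156b, against 2243 CPM in Tg-ACE and 2275 CPM in WT within Exp-156. The codes did not overlap here either, with a log2 difference of 0.19 (SE 0.07, 95% interval 0.01 to 0.36) that did not pass (adjusted p = 0.0770). It passed with upper-quartile factors (0.27, edgeR adjusted p = 0.0233), in DESeq2 (0.20, adjusted p = 0.0103) and in limma-voom (0.19, adjusted p = 0.0466).

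As a share of the summed level per kb of the β2-binding α subunits (Itgam, Itgax, Itgal and Itgad), Itgam made up 32.1%, 40.0%, 54.2% and 33.0% in Exp-156b (Tg-ACE replicates 2 and 3, then WT replicates 2 and 3), against 85.9% in the Tg-ACE and 85.0% in the WT library of Exp-156. Itgax made up 39.7% to 63.4% in Exp-156b and 12.7% in both Exp-156 libraries. Itgad, the remaining α subunit of this family, held at most 0.0185%. The α subunits together stood at 230.2 to 271.4 CPM per kb in Exp-156b against 397.5 and 384.3 in Exp-156, or 0.280 to 0.324 times the Itgb2 level against 0.541 and 0.515 times. These are ratios of transcripts and not of protein pairs.

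**Figure D2:**
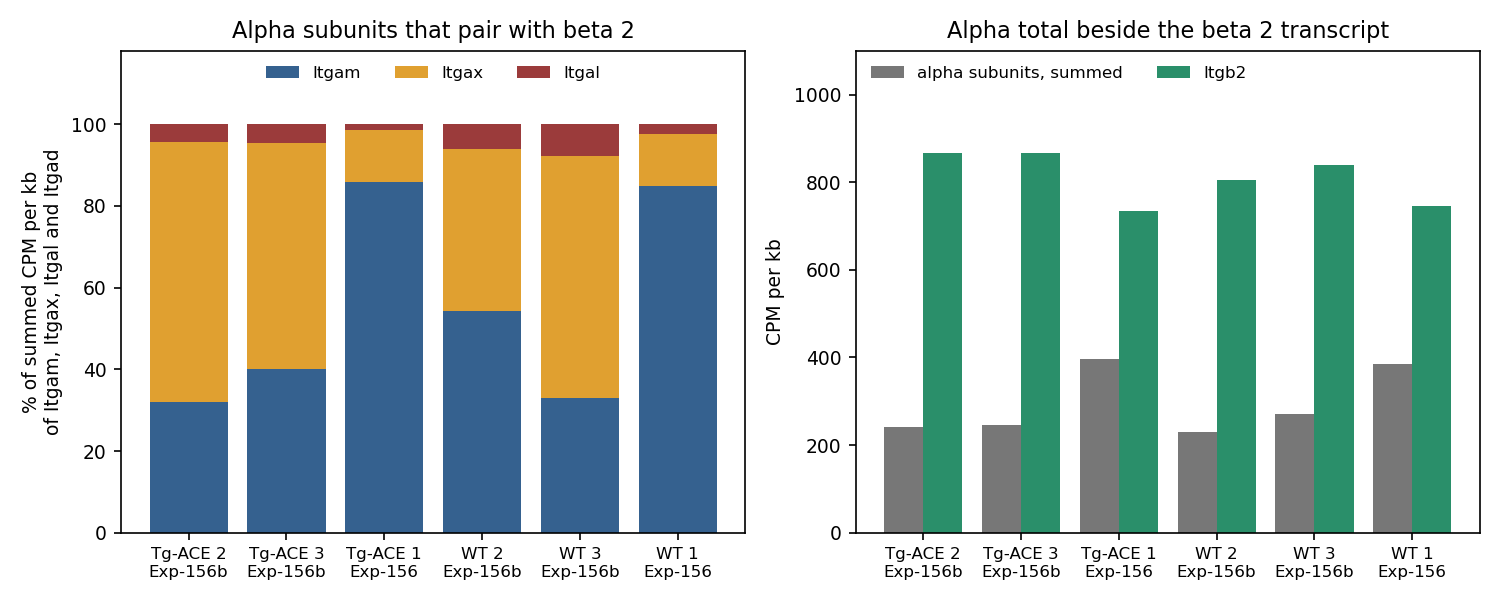
Left, share of each β2-binding α subunit in their summed CPM per kb, by library (Itgad is too low to draw), Tg-ACE left of WT and Exp-156b left of Exp-156 within each. Right, the same sum beside the Itgb2 level in CPM per kb. Itgam made up 32.1% to 54.2% in the Exp-156b libraries of both genotypes and 85.0% and 85.9% in Exp-156.

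Itgam and Itgax are neighbours with opposite changes, so the 250 bases before their RefSeq starts are shown (RefSeq, GRCm38.p6, forward strand, 5′ to 3′). Capitals mark 2 motifs, searched on both strands. GAGGAA holds the GGAA core of sites for ETS factors such as the macrophage factor PU.1, and TGAGTCA is the AP-1 site. The marked motifs do not overlap each other. The GGAA core by itself was not searched for. A further motif, GGGCGG, was searched and is not marked.
Itgam, chr7:128062390-128062639: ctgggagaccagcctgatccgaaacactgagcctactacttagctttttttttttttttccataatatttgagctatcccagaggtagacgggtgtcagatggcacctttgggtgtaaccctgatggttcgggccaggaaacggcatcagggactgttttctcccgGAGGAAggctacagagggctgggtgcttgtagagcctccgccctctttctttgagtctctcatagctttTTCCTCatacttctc
Itgax, chr7:128129300-128129549: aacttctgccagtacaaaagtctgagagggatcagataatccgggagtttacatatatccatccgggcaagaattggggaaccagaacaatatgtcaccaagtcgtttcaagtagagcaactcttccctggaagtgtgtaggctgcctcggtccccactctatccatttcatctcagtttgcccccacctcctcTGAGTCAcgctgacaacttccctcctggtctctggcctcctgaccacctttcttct
The Itgam window holds GAGGAA beginning 84 bases and its reverse complement TTCCTC beginning 15 bases before the start, and no TGAGTCA. The Itgax window holds TGAGTCA beginning 56 bases before the start and no GAGGAA. Of 32851 windows of this length in the table, 23.3% hold GAGGAA and 4.46% hold TGAGTCA on either strand. Of the 10 members, 6 had an entry there, and GAGGAA was also found before Itga5 and Itgb1 but not before Itga4 or Itgb7. A match is a description of the letters and no evidence of binding.

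The second row named Itgam (ENSMUSG00000108596.1) is Gm49368 in the GENCODE vM21 annotation, a protein-coding locus at 128062683 to 128128160 that begins inside Itgam and ends between it and Itgax. It had 1.08 and 1.03 CPM in Tg-ACE and 1.46 and 1.11 CPM in WT within Exp-156b, against 4.25 CPM in Tg-ACE and 3.76 CPM in WT within Exp-156. Its log2 fold change of -1.78 (SE 0.23, adjusted p = 0.00085) matches that of Itgam, but the estimated counts of both rows were not whole in any of the 6 libraries. These counts depend on how reads were assigned, and as the loci overlap, the rows are not independent measurements. Counts of rows given below still include both. The second row held 0.206% to 0.274% of the reads of both rows.

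Among the β1 partners the laminin and VCAM-1 receptor subunits fell and the fibronectin receptor subunit rose in Exp-156b. Itga6 (chromosome 2, 71745616 to 71858416, forward strand) had 84.9 and 100.2 CPM in Tg-ACE and 77.4 and 72.7 CPM in WT within Exp-156b, against 194.5 CPM in Tg-ACE and 145.9 CPM in WT within Exp-156. Its log2 fold change was -1.02 (SE 0.08, adjusted p = 0.000108), with no overlap between codes. Itga4 (chromosome 2, 79255426 to 79333123, forward strand) had 42.9 and 45.5 CPM in Tg-ACE and 60.8 and 53.6 CPM in WT within Exp-156b, against 111.2 CPM in Tg-ACE and 123.2 CPM in WT within Exp-156. All Exp-156b libraries were low, with a log2 fold change of -1.22 (SE 0.08, adjusted p = 5.16e-05).

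Itga5 (chromosome 15, 103344286 to 103366763, reverse strand) had 259.5 and 257.2 CPM in Tg-ACE and 257.6 and 261.8 CPM in WT within Exp-156b, against 180.3 CPM in Tg-ACE and 170.2 CPM in WT within Exp-156. The 4 Exp-156b libraries were close together (SD 2.09 CPM) and above both Exp-156 libraries, and the log2 fold change was 0.56 (SE 0.06, adjusted p = 0.000502). Itgb1, their common partner (chromosome 8, 128685654 to 128733200, forward strand), had 568.3 and 566.8 CPM in Tg-ACE and 633.1 and 584.8 CPM in WT within Exp-156b, against 737.0 CPM in Tg-ACE and 740.4 CPM in WT within Exp-156. It fell by 0.33 on the log2 scale (SE 0.07, adjusted p = 0.00777). Without Tg-ACE replicate 1 the value was -0.28 and did not pass (edgeR adjusted p = 0.0689).

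Itgb7 (chromosome 15, 102215995 to 102231944, reverse strand) had 121.6 and 204.2 CPM in Tg-ACE and 269.6 and 130.1 CPM in WT within Exp-156b, against 388.1 CPM in Tg-ACE and 403.0 CPM in WT within Exp-156. The Exp-156b libraries were all lower but varied by more than those of Itga4. The log2 fold change was -1.13 (SE 0.28, adjusted p = 0.0146), and it did not pass without either Exp-156 library (-1.01 with adjusted p = 0.144 without Tg-ACE replicate 1, and -1.26 with adjusted p = 0.0837 without WT replicate 1, both in edgeR). Per length of merged exons, Itgb7 stood at 12.2 to 22.6 times the level of Itga4, its α partner among the members. This ratio depends on the length used. The means over 6 libraries were 91.2 and 5.21 CPM per kb with merged exons, and 94.2 and 7.46 with the longest transcript.

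Itgb3 (chromosome 11, 104608000 to 104670476, forward strand) was the only member whose values overlapped between codes. It had 64.1 and 56.1 CPM in Tg-ACE and 25.1 and 57.9 CPM in WT within Exp-156b, against 36.4 CPM in Tg-ACE and 49.4 CPM in WT within Exp-156. WT replicate 2 stood far below the other Exp-156b libraries, and the log2 difference of 0.21 (95% interval -0.55 to 0.98) did not pass (adjusted p = 0.629). Without that library it was 0.51 and passed (edgeR adjusted p = 0.0128), with values of -0.26 to 0.72 when other libraries were left out.

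**Figure D3:**
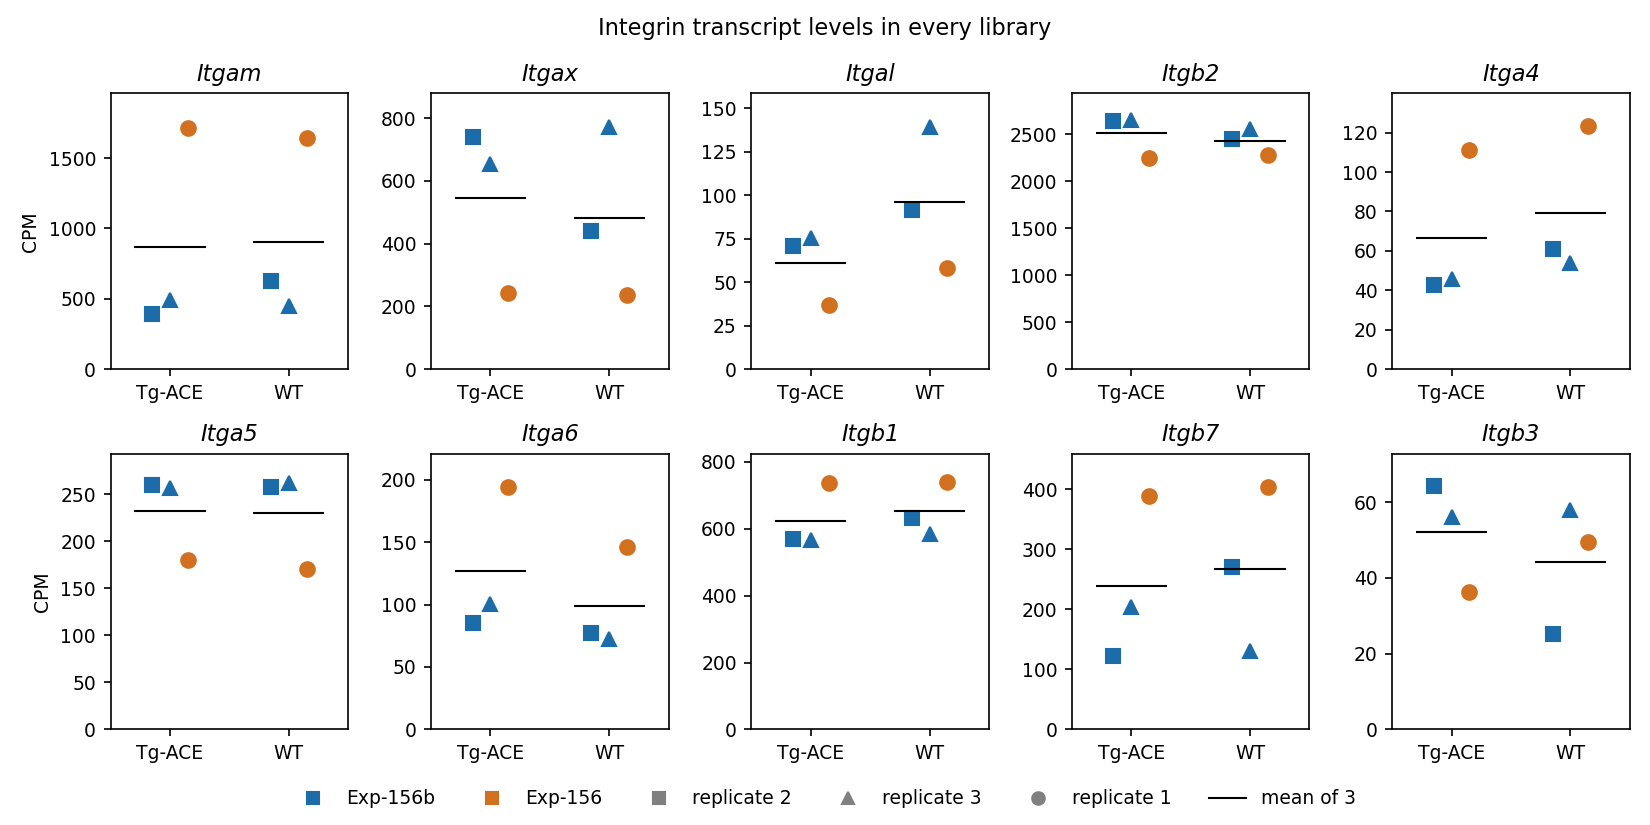
CPM of the 10 integrin genes in each library, Tg-ACE left of WT, Exp-156b in blue, Exp-156 in orange, the shape giving the replicate number and the line the mean of 3. Apart from Itgb3, each gene had its Exp-156 libraries (replicate 1) on one side of all Exp-156b libraries. Over all 6 libraries the values of Tg-ACE and WT overlapped for every gene. Apart from Itgb3 this overlap had to occur, because each genotype holds libraries of both codes.

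In all, 9 of the 11 rows passed between the experiments, 3 higher and 6 lower in Exp-156b, where 42.9% of all tested genes passed (20% higher and 22.9% lower). The counts of rows here include both Itgam rows. With the second Itgam row left out, 8 of the 10 members passed. With upper-quartile factors the balance over all genes turned, to 3332 genes higher and 2408 lower against 2559 and 2943, and 4 rows passed as higher and 6 as lower. Changes of at least 2-fold that passed were seen in 6 rows, against 12.5% of all tested genes. The codes did not overlap in 10 rows, against 59.8% of all tested genes: 4 rows were higher in Exp-156b (28.9% of all tested genes) and 6 lower (30.9%). The median absolute log2 change was 1.02 over the 11 rows and 0.30 over all tested genes. When each library was left out in turn, 7 to 10 rows passed.

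Most marker lists moved with the code, and whether the cells they mark account for part of these differences was not tested. All 9 macrophage core markers had a log2 change below 0 in Exp-156b (median -0.42). Of them 0 passed as higher and 5 as lower, where 20% and 22.9% of all tested genes did. Their sums overlapped between the codes (19321 to 23371 CPM in Exp-156b, 21809 and 22365 CPM in Exp-156). The 8 dendritic cell markers summed to 7.05 to 12.0 CPM in Exp-156b against 62.2 and 78.2 CPM in Exp-156, all 8 detected. This sum and Itgax moved in opposite directions. Of the 8, 4 were tested, and 0 passed as higher and 3 as lower. The 11 neutrophil markers summed to 81.9 to 92.1 CPM in Exp-156b against 258.2 and 569.3 CPM in Exp-156, with Ly6g, Elane, Camp and Ngp below 1 CPM in every library. The 10 markers of monocytes and small peritoneal macrophages summed to 584.7 to 775.0 CPM in Exp-156b against 1829 and 1911 CPM in Exp-156, and the 12 of large peritoneal macrophages to 1169 to 1367 CPM against 1573 and 1757 CPM. The latter sum hides opposite changes. Cd9 alone had 869.1 to 1044 CPM in Exp-156b against 608.8 and 595.8 CPM in Exp-156. Of the 11 tested in that list, 2 passed as higher and 8 as lower (20% and 22.9% of all tested genes), with a median log2 change of -2.12. The 7 eosinophil markers summed to 10.3 to 21.2 CPM in Exp-156b against 98.3 and 241.4 CPM, with Epx, Prg2, Ear1 and Ear6 below 1 CPM in every library, the 8 mast cell and basophil markers (Ms4a2 and Mcpt8 below 1 CPM in every library) to 14.2 to 29.0 CPM against 62.5 and 96.6 CPM, and the 13 T and NK cell markers (Cd3e below 1 CPM in every library) to 9.04 to 13.3 CPM against 34.0 and 41.1 CPM. The 8 B cell markers overlapped (65.7 to 151.1 CPM in Exp-156b, 111.1 and 138.4 CPM in Exp-156), and the 10 mesothelial and fibroblast markers were higher, at 287.7 to 592.7 CPM against 228.6 and 248.6 CPM. The 9 erythroid and platelet markers summed to 16.7 to 36.3 CPM in Exp-156b against 70.2 and 100.3 CPM, with Hbb-bs, Hba-a1, Alas2, Ppbp and Gp9 below 1 CPM in every library. Of the tested markers, 9 of 9 for monocytes and small peritoneal macrophages and 3 of 6 for neutrophils passed as lower. So did 2 of 2 for eosinophils, 6 of 6 for mast cells and basophils and 9 of 11 for T and NK cells. The erythroid and platelet list had 3 tested (1 higher, 2 lower), B cells 8 (0 passed) and mesothelial cells and fibroblasts 10 (7 higher, 1 lower).

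No integrin passed between Tg-ACE and WT in edgeR. Ace, the overexpressed gene, did not pass either. Its log2 difference was 2.14 on genotype alone (edgeR adjusted p = 0.9998) and 1.95 with the code as a term (edgeR adjusted p = 0.136). A difference of that size can therefore fail to pass in these fits. Among the members the largest differences were a lower Itgal and a higher Itga6 in Tg-ACE, both seen within each experiment, followed by a lower Itga4. Of the 11 rows 0 passed in the fit on genotype alone (0% of all tested genes passed), and 0 had an unadjusted p under 0.05 (0.982% of all tested genes). In DESeq2 0 rows passed (0.0706% of all tested genes), and in limma-voom 0 (0.0078%). Over all 6 libraries 0 of the 11 rows were free of overlap between the genotypes (4.91% of all tested genes were), but each genotype spans both codes, which alone separate 10 rows. Within Exp-156b, with 2 libraries of each genotype, 6 rows did not overlap, against 44.8% of all tested genes. Itga6 and Itgb2 were higher in Tg-ACE there (22.3% of all tested genes were higher), and Itgal, Itga4, Itgb1 and the second Itgam row lower (22.5%). The main Itgam row overlapped between the genotypes there. When the code was added as a term 0 rows passed (0.0156% of all tested genes passed, all of them lower), and 3 rows had an unadjusted p under 0.05, against 6.48% of all tested genes.

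Itgal was the first of these 3. Its mean level was 61.1 ± 21.2 CPM in Tg-ACE and 96.1 ± 40.7 CPM in WT (SD, n = 3 each), with the same log2 difference of -0.65 in the fit on genotype alone (95% interval -1.61 to 0.30, adjusted p = 0.9998) and in the fit with the code (-0.98 to -0.32, adjusted p = 0.558; unadjusted p = 0.00195). Within Exp-156b the difference of log2 CPM was -0.62, and within Exp-156 it was -0.65. In Exp-156b both Tg-ACE libraries lay below both WT libraries. On genotype alone the value ranged from -0.91 without WT replicate 1 to -0.29 without WT replicate 3, and it was -0.39 without Tg-ACE replicate 1. DESeq2 with the code as a term, an alternative chosen after the data were seen, called Itgal (log2 fold change -0.65, adjusted p = 0.00975), against 0.288% of all tested genes. Limma-voom with the code did not (adjusted p = 0.444, against 0.0156% of all tested genes), and edgeR with the code gave adjusted p-values of 0.0669 to 0.911 when 1 library was left out. Itgal is abundant in lymphocytes. The 13 T and NK cell markers summed to 34.0, 9.04 and 9.29 CPM in Tg-ACE (replicates 1, 2 and 3) and to 41.1, 13.3 and 11.3 CPM in WT. Within each code their sum too was lower in Tg-ACE, at low levels in Exp-156b. On genotype alone the log2 difference was below 0 for all 11 that were tested, none of which passed, against 6663 of all 12827 tested genes. The 8 B cell markers summed to 111.1, 105.3 and 100.3 CPM in Tg-ACE and to 138.4, 65.7 and 151.1 CPM in WT (replicates 1, 2 and 3). Within Exp-156b these sums overlapped between the genotypes, although the log2 difference was below 0 for all 8. Between the codes, the T and NK sum was lower in Exp-156b, where Itgal was higher. Whether lymphocytes play a part in the Itgal difference was not tested.

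Itga6 averaged 126.5 ± 59.3 CPM in Tg-ACE and 98.7 ± 40.95 CPM in WT (SD, n = 3 each). The code added, the log2 difference was 0.34 (95% interval 0.15 to 0.53, adjusted p = 0.622; unadjusted p = 0.00307), with 0.30 inside Exp-156b and 0.41 inside Exp-156 on the log2 CPM scale. Itga4 averaged 66.5 ± 38.7 CPM in Tg-ACE and 79.2 ± 38.2 CPM in WT (SD, n = 3 each), with a log2 difference of -0.29 (95% interval -0.48 to -0.11, adjusted p = 0.747; unadjusted p = 0.0071) and values of -0.37 inside Exp-156b and -0.15 inside Exp-156. In the fit on genotype alone the intervals were -0.63 to 1.35 for Itga6 and -1.44 to 0.94 for Itga4.

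With the code added, the 95% intervals of the log2 difference between Tg-ACE and WT were -0.12 to 0.21 for Itgb2, -0.23 to 0.09 for Itgb1 and -0.12 to 0.16 for Itga5. They were wider for Itgam (-0.52 to 0.18), Itgax (-0.28 to 0.58), Itgb3 (-0.50 to 0.93) and Itgb7 (-0.86 to 0.43). A test of whether the genotype difference itself differed between the experiments passed for 0 of the 11 rows in edgeR (0% of all tested genes passed; 0 rows had an unadjusted p under 0.05, against 7.65% of all tested genes). DESeq2 called 0 rows (0.11% of all tested genes) and limma-voom 0 (0%). The smallest edgeR adjusted p was 0.716, for Itgb3. Its log2 difference between Tg-ACE and WT was 0.65 within Exp-156b and -0.44 within Exp-156.

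**Figure D4:**
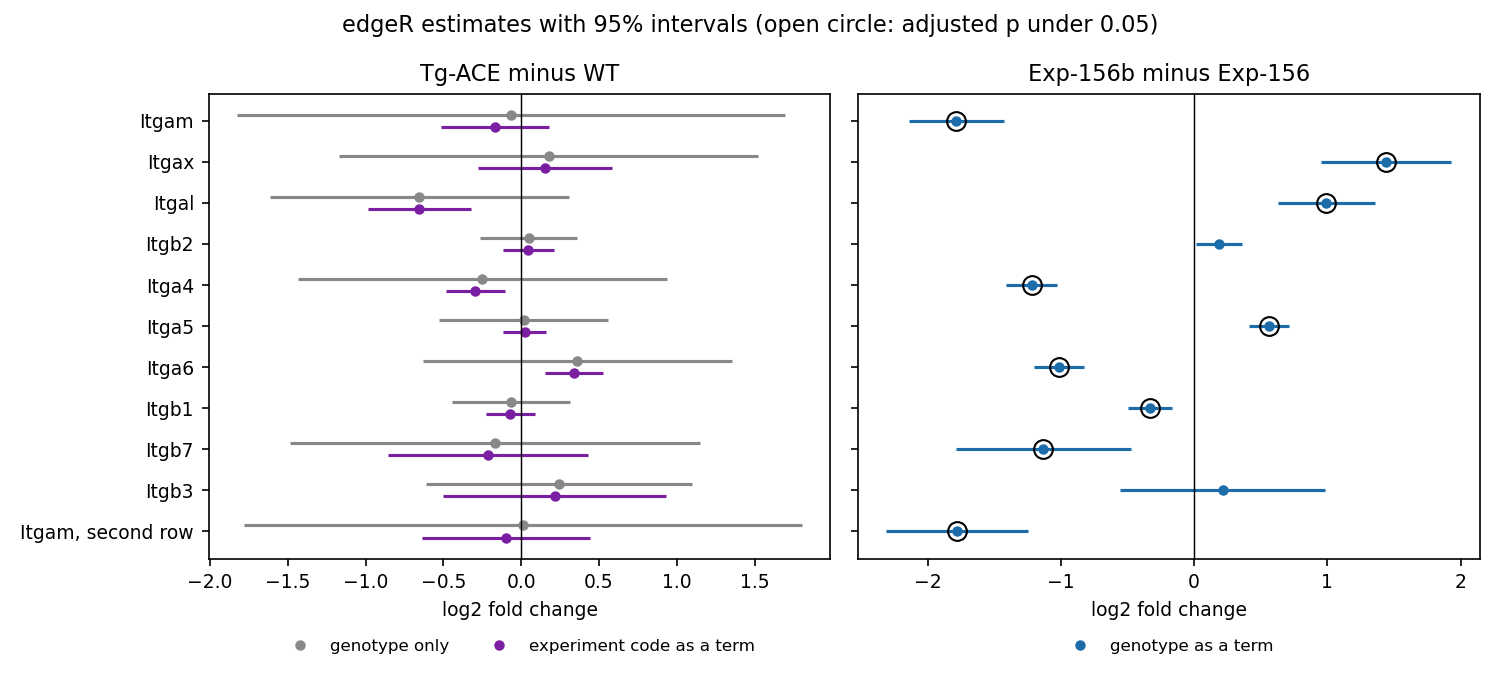
Log2 fold changes with 95% intervals from edgeR for Tg-ACE minus WT (left, genotype alone in grey, code added in purple) and for Exp-156b minus Exp-156 (right). Open circles mark the 9 rows with an adjusted p under 0.05, all of them in the comparison of the experiments.

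The other integrin subunits were mostly scarce. Of 17 listed, 11 passed the low-count filter, and between the experiments 1 rose and 4 fell in Exp-156b (20% and 22.9% of all tested genes did), with a median log2 change of -0.27 against -0.00 over all tested genes. The rule named Itga2, the α subunit of a collagen receptor (0.249 to 0.596 CPM in Exp-156b against 2.11 and 5.56 CPM in Exp-156, log2 fold change -3.19), the platelet subunit Itga2b (0.888 to 1.35 CPM against 3.87 and 6.42 CPM, -2.22), which is also in the platelet marker list, Itga3 (6.49 to 10.5 CPM against 4.08 and 2.99 CPM, 1.26) and Itga10 (1.07 to 1.31 CPM against 1.93 and 2.54 CPM, -0.91). The abundant ones, named after their values were seen, were Itgb5 (212.6 to 229.5 CPM in Exp-156b against 227.6 and 218.7 CPM in Exp-156, log2 difference -0.02) and Itgav (62.5 to 84.7 CPM against 102.9 and 77.8 CPM, -0.27), the β5 and αv subunits of receptors for vitronectin and apoptotic cell bridges, and neither passed. Between genotypes 0 of the 11 passed in edgeR, and the smallest p belonged to Itga2 (log2 difference -1.15, unadjusted p = 0.403) and Itgb4 (0.24, 0.616).

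Of 26 ligands and counter-receptors, 20 were tested, and 8 rose and 6 fell in Exp-156b, where 20% of all tested genes rose and 22.9% fell (median log2 change 0.45). Vcam1, the ligand of α4β1, had 3.94 to 6.66 CPM in Exp-156b against 1.09 and 0.736 CPM in Exp-156 (log2 fold change 2.56, adjusted p = 0.000801). Madcam1, the ligand of α4β7, had 0.239 to 0.781 CPM against 0.0703 and 0.123 CPM (2.39, adjusted p = 0.0309). Both Exp-156 values of Madcam1 lay at or below 3 counts, so the size of its change is uncertain. The low-count filter kept Madcam1, which is among the 8 that rose. It left out Itgae, although Itgae was higher in both Exp-156 libraries than in any Exp-156b library. The numbers of genes that rose and fell therefore depend on the filter. Thbs1, which encodes the matrix protein thrombospondin 1, had 51.7 to 90.03 CPM against 679.5 and 336.1 CPM (-2.69, adjusted p = 0.000344), and Cdh1, which encodes E-cadherin, the ligand of αEβ7, had 0.288 to 0.598 CPM against 2.74 and 3.23 CPM (-2.76, adjusted p = 0.000448). Between genotypes 0 of 20 passed in edgeR, the smallest p being that of Mfge8, a bridge from apoptotic cells to αv integrins (1116, 6031 and 4861 CPM in Tg-ACE and 1127, 2136 and 3349 CPM in WT, replicates 1, 2 and 3, log2 difference 0.86, unadjusted p = 0.245), and Spp1, which encodes osteopontin (0.30, 0.317).

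Of 45 genes of the activation and adhesion machinery inside the cell, 43 were tested, and 9 rose and 23 fell in Exp-156b, against the same 20% and 22.9% of all tested genes (median log2 change -0.36). Cytip, which encodes a partner of the integrin regulator cytohesin 1, had 13.0 to 14.4 CPM in Exp-156b against 75.7 and 73.9 CPM in Exp-156 (log2 fold change -2.47, adjusted p = 1.11e-06). The adaptor gene Skap1 had 0.0411 to 0.533 CPM against 1.13 and 1.51 CPM (-2.37, adjusted p = 0.00681). The kinase gene Src had 29.0 to 42.4 CPM against 6.75 and 8.18 CPM (2.20, adjusted p = 7.43e-05) and Rapgef3, which encodes an exchange factor for Rap1, 5.04 to 8.51 CPM against 0.879 and 1.92 CPM (2.14, adjusted p = 0.00311). Between genotypes 0 of 43 passed in edgeR. Lims2, which encodes an adaptor of the integrin-linked kinase complex, had the smallest p, with 6.43, 7.53 and 4.23 CPM in Tg-ACE and 3.64, 2.06 and 4.17 CPM in WT (log2 difference 0.88, unadjusted p = 0.0422, adjusted p = 0.9998), followed by Itgb3bp (-0.32, unadjusted p = 0.277).

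The genes whose pattern over the 6 libraries was nearest to a member's were found by the root-mean-square difference of log2 CPM after each gene's own mean was removed, for members spanning more than 1 log2 unit. They share libraries and mostly follow the experiment code. Nearest to Itgam were Fgr (0.07), a Src-family kinase gene of myeloid cells, and Fmnl1 (0.11). Fgr had 29.8 and 41.9 CPM in Tg-ACE and 51.8 and 36.1 CPM in WT within Exp-156b, against 125.9 CPM in Tg-ACE and 135.0 CPM in WT within Exp-156. Its libraries had the same order as those of Itgam within Exp-156b and the opposite order within Exp-156. Nearest to Itgax were Cpeb1 (0.06) and Dok7 (0.11), to Itgal Plxdc1 (0.11) and Tead2 (0.16), to Itga4 Parp11 (0.07) and Klf7 (0.08), and to Itga6 Kctd21 (0.07) and Fam213b (0.07). The fits were looser for Itgb7 (Pram1 0.16 and Abhd15 0.17) and Itgb3 (Dnajb3 0.16 and Rtkn 0.17), and Dnajb3 stood at no more than 0.558 CPM. Nearest to the second Itgam row were Zcchc24 (0.11) and Arhgef37 (0.12). For each of these members the nearest other member lay at 0.27 or more, apart from the Itgam rows (0.13).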

How the data were processed

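Poly-A RNA libraries of 3 Tg-ACE and 3 WT samples were made with a stranded kit and read as single 75-base ends, per the labels. The deposited table holds expected counts (estimated counts) per gene with no normalization. The submitters' processing notes list STAR 2.5.0, RSEM 1.2.25, mm10 and GRCh38, without a role for each. No source used here states the strand setting. Between 11.0% and 11.3% of values were not whole, and all were rounded. The 92 ERCC spike-in rows (1 count in all) were left out. Depth-based limits cover counting error only, and 3 counts are 0.107 to 0.123 CPM.

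The comparison of Tg-ACE with WT used edgeR 4.0.16 (R 4.3.3), its quasi-likelihood test on genotype alone, TMM factors and filterByExpr (12827 genes), Benjamini-Hochberg adjustment over all genes and a threshold of 0.05. The experiment code was tested with genotype as a further term, and an interaction term tested whether the genotype difference varied with the code. A standard error is the log2 fold change over the square root of its F statistic. Log2 CPM used a prior count of 2. DESeq2 1.42.0, limma 3.58.1 and other factors, filters, terms and samples served as alternatives. The fits were tested on simulated data. Groups follow the sample labels (Tg-ACE), although the design text of the series reads Tg-NKO. Positions and lengths came from GENCODE vM21, in which 25251 identifiers matched. No libraries were identical.

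The members and gene lists were chosen with earlier results of these data known. The rule for names took all 10 members, from each list up to 4 genes that passed between the codes with the largest change and the 2 with the smallest p between genotypes, and the 2 nearest genes by pattern. Some genes stand in 2 lists (Icam2, Thy1, Cd9, Itga2b and Adgre1). Same-numbered Tg-ACE and WT libraries deviated together from their group means over genes (correlations 0.856, 0.483 and 0.637). Crossed replicates 2 and 3 gave 0.615 and 0.539, so the shared deviation follows the experiment code. With the code removed, same-numbered replicates 2 and 3 gave -0.0126, so beyond the code the numbers were not seen to pair the samples. Fits with the replicate block are given in the closing section as an alternative.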

Additional observations from a re-analysis of the deposited data

Results flagged for a closer look

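Over the 4 Exp-156b libraries, Itgb3 in WT replicate 2 stood apart from the others, at 25.1 CPM against 57.9 CPM in the other WT library and 64.1 and 56.1 CPM in Tg-ACE. Its gap to the nearest library was 0.857 of the whole range of log2 CPM, above the limit for 4 values. Chance flags about 1 in 20 such groups, and 11 rows were examined.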

How the results depend on the processing

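Between the experiments, Itgam, Itgax, Itgal, Itga4, Itga5 and Itga6 kept their direction and passed under every alternative run. The exceptions among the other members (Itgb1, Itgb2, Itgb3 and Itgb7) are given with their values above. The Itgb3 value ranged from -0.26 to 0.72 when 1 library was left out, and its sign also turned without WT replicate 3 (-0.00071). The number of genes that passed over all genes was 2559 higher and 2943 lower in Exp-156b, 3332 higher and 2408 lower with upper-quartile factors, and 1442 to 2382 higher and 1961 to 2889 lower when 1 library was left out. With 2 Exp-156 libraries, 1 of them left out leaves a lone library that is assumed to vary like the others. The fits with the code in DESeq2, limma-voom and without single libraries were chosen after the data were seen. A filter of 5 CPM left out the second Itgam row.

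Between genotypes, 0 rows passed under every alternative in edgeR or limma-voom and 1 row (Itgal) in DESeq2 with the experiment code. Over all genes 0 passed on genotype alone, against 1 lower with no low-count filter, 1 lower in limma-voom, 3 higher and 6 lower in DESeq2, 0 to 1 lower when 1 library was left out, 2 lower with the experiment code as a term, with the replicate block, in Exp-156b alone and in limma-voom with the code, and 19 higher and 18 lower in DESeq2 with the code. The replicate block changed no call among the members. For Itgal it gave -0.63 (edgeR adjusted p = 0.475). On genotype alone, leaving out 1 library turned signs. Without a replicate 1 library, that genotype has no Exp-156 library, so genotype and code cannot be fully told apart in that fit. Signs also turned without other libraries, and the cause was not tested. The values ranged from -1.04 to 0.69 for Itgam, -1.001 to 0.73 for the second Itgam row, -0.15 to 0.70 for Itgax, -0.84 to 0.22 for Itga4, -0.16 to 0.17 for Itga5, -0.093 to 0.76 for Itga6, -0.20 to 0.037 for Itgb1, -0.038 to 0.49 for Itgb3 and -0.72 to 0.25 for Itgb7. The second Itgam row (0.01) was also -0.062 in limma-voom, -0.10 with the experiment code, -0.088 with the replicate block, -0.29 in Exp-156b alone, -0.10 in DESeq2 with the code and -0.013 in limma-voom with the code, and Itga5 was -0.0082 in Exp-156b alone. The summed level of the 11 rows was 1425 CPM per kb, and 1519 with the longest transcript as the length.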
